A study of Mus musculus with 17 samples.

Results

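The genes described here are 9 genes of cholesterol synthesis and its control by SREBP2: the enzyme genes Hmgcs1, Fdps, Fdft1, Sqle, Lss, Cyp51 and Dhcr7, and the regulators Insig1 and Srebf2. They were taken by symbol from a table of 21683 genes and all 9 were present and passed the filter on low values (at least 1 TPM in at least 5 libraries), as did 10451 genes in all. RNA-Seq was performed on peritoneal macrophages (PMs) elicited with thioglycollate from 8-week-old mice on the C57BL/6 background. The 6 F/F PBS libraries came from IKKβF/F PMs given PBS, the 6 F/F Tat libraries from IKKβF/F PMs given 100 nM recombinant HIV-1 Tat, and the 5 ΔMye Tat libraries from IKKβΔMye PMs given 100 nM Tat. The cells attached for 4 h and were then treated for 12 h. In ΔMye mice, 1 copy of a LysM-Cre knock-in deletes floxed Ikbkb, the gene of the kinase IKKβ that activates NF-κB, in myeloid cells, and Cre sits at the Lyz2 locus. ΔMye PMs given PBS were not analysed here, so what separates the Tat-treated genotypes can include a difference that preceded Tat. Tat was made in E. coli and, per the methods, freed of endotoxin.

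Cholesterol is built from acetyl-CoA through mevalonate, isoprenoids, squalene and lanosterol. When sterol in the endoplasmic reticulum is low, SCAP carries the membrane-bound precursor SREBP2 to the Golgi apparatus, where it is cleaved, and its released part enters the nucleus and raises transcription of nearly every enzyme gene of the route, and of Srebf2 and Insig1. INSIG1 closes the loop by holding SCAP in the endoplasmic reticulum when sterol is ample. In macrophages the route meets cholesterol taken up from lipoproteins, and oxysterols made from cholesterol both restrain SREBP2 and activate the LXR receptors that drive efflux.

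The members sit on 7 chromosomes of GRCm38, as annotated in GENCODE M21. Hmgcs1 is at chr13:119690379-119708260 (+), Fdps at chr3:89093588-89101959 (-), Fdft1 at chr14:63145150-63179578 (-), Sqle at chr15:59315077-59331192 (+), Lss at chr10:76531588-76557138 (+), Cyp51 at chr5:4081145-4104746 (-), Dhcr7 at chr7:143823145-143848410 (+), Insig1 at chr5:28071363-28078662 (+) and Srebf2 at chr15:82147181-82205379 (+). Because SREBP2 acts at promoters, the bases before the start site are shown for 3 members that span the range of change with Tat: Hmgcs1, among the least changed, and Lss and Dhcr7, which fell by more than 3-fold. The sequences are the 250 bases upstream of the start in RefSeq (GRCm38.p6), read 5′ to 3′ on the strand of the gene. Capitals mark the sterol response element searched here (TCACNCCAC) and CCAAT, the box bound by NF-Y, on either strand (the reverse of CCAAT reads ATTGG).
Hmgcs1, chr13:119690101-119690350 (+): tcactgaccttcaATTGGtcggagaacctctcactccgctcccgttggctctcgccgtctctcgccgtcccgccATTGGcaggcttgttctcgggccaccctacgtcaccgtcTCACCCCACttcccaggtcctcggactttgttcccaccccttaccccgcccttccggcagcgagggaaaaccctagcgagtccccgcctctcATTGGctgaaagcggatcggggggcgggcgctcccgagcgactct
Lss, chr10:76531355-76531604 (+): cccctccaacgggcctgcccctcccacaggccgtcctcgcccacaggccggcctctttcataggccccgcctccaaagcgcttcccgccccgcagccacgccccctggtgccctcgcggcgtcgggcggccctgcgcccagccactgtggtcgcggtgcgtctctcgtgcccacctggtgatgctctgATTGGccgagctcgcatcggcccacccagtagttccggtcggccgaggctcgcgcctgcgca
Dhcr7, chr7:143822917-143823166 (+): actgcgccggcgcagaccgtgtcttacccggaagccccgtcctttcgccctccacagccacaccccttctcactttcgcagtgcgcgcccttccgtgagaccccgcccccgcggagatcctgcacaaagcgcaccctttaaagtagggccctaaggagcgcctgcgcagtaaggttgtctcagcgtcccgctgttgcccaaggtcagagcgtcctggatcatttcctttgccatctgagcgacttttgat
RefSeq windows of 250 bases before and 50 after the start were matched for 6 of the 9 members, in 8 windows, and Sqle, Fdps and Fdft1 had no entry. The sterol response element was found in 1 of the 6 genes: Hmgcs1 held TCACCCCAC at position -137 from the start, and 1.44% of the 27025 genes with a window held a match. CCAAT was found in 6 of the 6 genes, against 41.1% of all genes, and the GC box GGGCGG also in 6 of 6, against 38.2%. The window of Dhcr7 printed above held no CCAAT, and its match lay at another of its 3 RefSeq starts. The E-box CACGTG was found in 2 of the 6 genes, against 8.09%. These matches describe letters in a window and are not bound sites.

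The libraries were read as macrophages from their markers: all 6 macrophage markers listed (Adgre1, Cd68, Csf1r, Itgam, Mertk and Lyz2) averaged at least 1 TPM in every group. Their summed level, most of it Lyz2, was 25494 to 26489 TPM for F/F PBS, 9135 to 9755 for F/F Tat and 6849 to 7145 for ΔMye Tat. From F/F PBS to F/F Tat, Csf1r fell from a mean of 381.2 to 64.0 TPM, Cd68 from 2596 to 1744, Itgam from 177.8 to 105.6 and Adgre1 from 498.7 to 441.0. Mertk rose from 15.4 to 20.1 TPM. The 5 markers other than Lyz2 did not follow the sum throughout: from F/F Tat to ΔMye Tat all 5 averaged higher (Adgre1 441.0 to 511.8, Csf1r 64.0 to 103.6). Over the same step Lyz2, the locus that holds Cre, went from 6993 to 4333. Summed markers of other cells were low but not constant: neutrophil markers, nearly all S100a8 with Ngp at 0 throughout and Ly6g at most 1.28 TPM, spanned 52.3 to 60.7, 65.4 to 77.6 and 87.1 to 105.2 TPM in the same order, T cell markers 3.10 to 7.21, 2.39 to 3.08 and 6.76 to 7.42, B cell markers 12.1 to 25.4, 10.9 to 14.5 and 8.20 to 12.6, and mast cell markers 30.9 to 43.7, 29.0 to 40.9 and 22.5 to 29.1. Eosinophil and mesothelial markers summed to at most 5.21 TPM in any library. The part of these markers in the results below was not tested. Ikbkb averaged 26.8 TPM for F/F PBS, 23.2 for F/F Tat and 16.4 for ΔMye Tat, and the last step was -0.51 in log2 units (limma adjusted p = 4.51e-05), and a whole-gene TPM can miss the loss of 1 part of the gene. In bulk RNA, fewer cells of a type and less RNA per cell cannot be told apart.

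TPM gives a gene's share of all transcripts in a library after correction for transcript length, so levels can be compared between genes. As a share, it falls for every other gene when some genes take up more. The median tested gene moved by -0.65 on the log2 scale from F/F PBS to F/F Tat and by 0.22 from F/F Tat to ΔMye Tat, and median-ratio scaling brings these medians to -0.03 and 0.01. Values are for TPM as deposited unless scaling is named. Log2 fold changes are on the log2(TPM + 0.1) scale, tested with limma over all tested genes. A gene is called when the adjusted p is under 0.01 and the fold exceeds 3, and is said to pass when the adjusted p alone is under 0.01.

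The first comparison asks how Tat alters these genes in PMs with intact IKKβ. In the deposited TPM all 9 genes were lower with Tat, although Hmgcs1 and Srebf2 changed sign, to 0.06 each, after median-ratio scaling. The summed TPM of the members was 544.8 to 566.0 (median 552.3) in the F/F PBS libraries and 240.9 to 253.8 (median 243.9) in the F/F Tat libraries. Each of the 9 genes was lower in every F/F Tat library than in every F/F PBS library (62.4% of tested genes were lower without overlap), and 9 of 9 passed as lower (67.6% of tested genes). Of these, 4 of 9 were called lower (19.4% of tested genes): Dhcr7, Sqle, Lss and Fdps. The median log2 fold change of the members was -1.15, against -0.65 over all tested genes. For each member alone, the exact two-sided permutation test gave p = 0.00216, the smallest that 6 against 6 libraries allow. After median-ratio scaling 1 member was called (Dhcr7; background 9.73%) and 6 of 9 passed as lower (background 38.0%), with Hmgcs1, Insig1 and Srebf2 no longer passing.

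**Figure D1:**
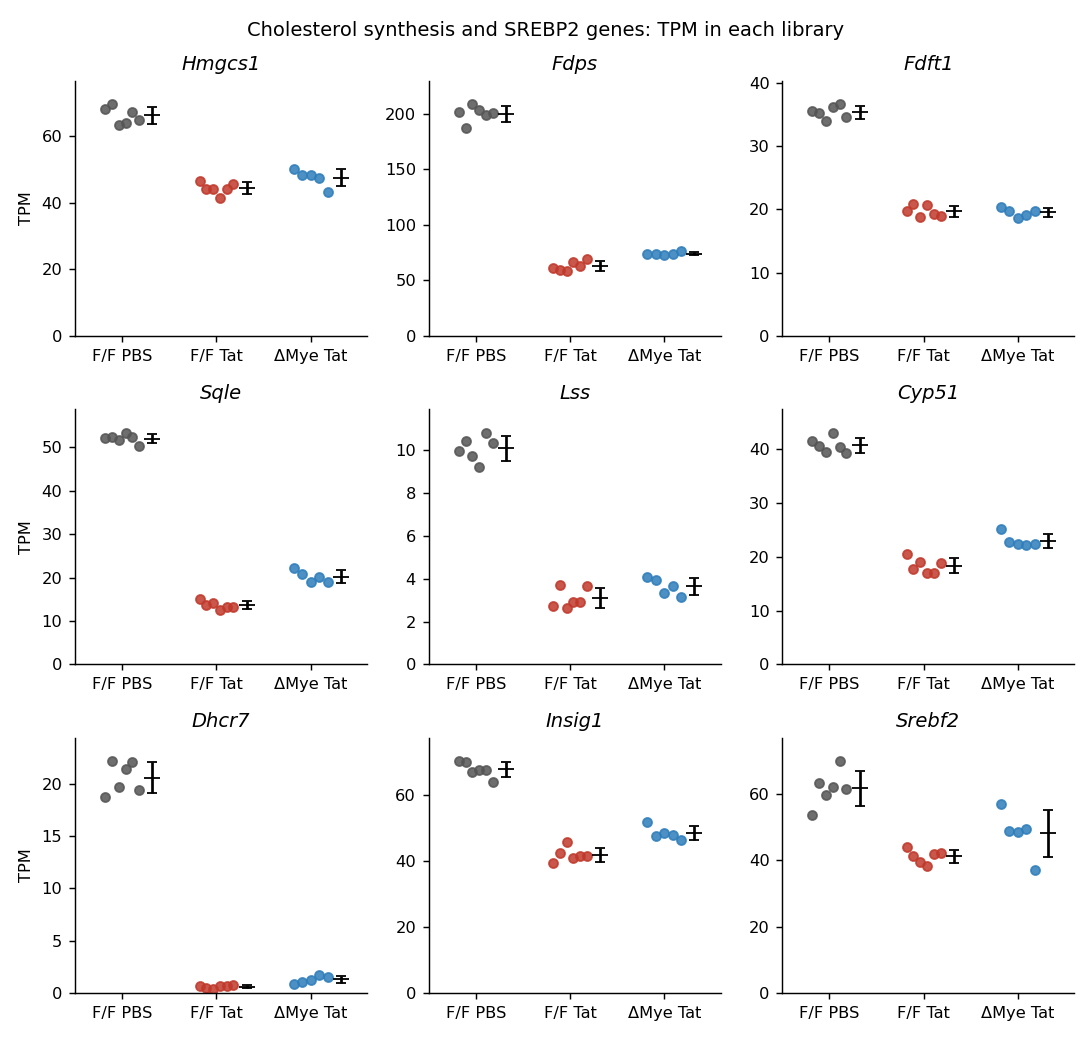
Points are TPM in single libraries of F/F PBS (n = 6), F/F Tat (n = 6) and ΔMye Tat (n = 5), on a linear axis from 0 in each panel, and the black marks beside them are mean ± SD. In these deposited TPM all 9 genes fall from F/F PBS to F/F Tat without overlap, Dhcr7 to 2.95% of its F/F PBS mean and Hmgcs1 to 67.0%. After median-ratio scaling Hmgcs1 and Srebf2 changed sign, and neither these nor Insig1 passed as lower.

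Dhcr7 encodes the reductase of the last step to cholesterol by one branch of the route, the conversion of 7-dehydrocholesterol. Its level was 18.8, 20.6 and 22.2 TPM (lowest, median and highest) in F/F PBS and 0.422, 0.656 and 0.726 TPM in F/F Tat. In ΔMye Tat it was 0.859, 1.03, 1.28, 1.71 and 1.55 TPM in libraries 19 to 23, so the groups formed 3 ranges without overlap. The F/F PBS mean was 33.9 times the F/F Tat mean, and the log2 fold change was -4.89 (SE, the standard error, 0.15, limma adjusted p = 1.14e-16) and of -4.29 after scaling (limma adjusted p = 2.47e-15). Only 0.182% of the tested genes had a lower log2 fold change. At levels under 1 TPM the pseudocount weighs on the fold, which was -3.75 on the log2 scale with a pseudocount of 1. ΔMye Tat was higher than F/F Tat by 0.95 (SE 0.16, limma adjusted p = 4.22e-05), or 0.76 after scaling (limma adjusted p = 7.49e-04), yet still at 6.24% of the F/F PBS mean. The size of this rise also depends on the pseudocount: it was 0.67 with 0.5 and 0.50 with 1, and passed with both.

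Sqle encodes squalene epoxidase, a rate-controlling oxygen-dependent step. It was 50.3, 52.2 and 53.4 TPM (lowest, median and highest) in F/F PBS and 12.6, 13.5 and 15.2 TPM in F/F Tat. In ΔMye Tat it was 22.3, 20.9, 18.9, 20.1 and 18.98 TPM, above every F/F Tat library and below every F/F PBS library. Sqle fell by 1.93 on the log2 scale with Tat (SE 0.05, limma adjusted p = 8.33e-18) and by 1.29 after scaling. From F/F Tat to ΔMye Tat it rose by 0.56 (SE 0.05, limma adjusted p = 3.45e-08) and, after scaling, by 0.34 (limma adjusted p = 2.96e-06). Its F/F PBS libraries had a coefficient of variation of 1.97%, the smallest among the members in that group.

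Fdps encodes farnesyl diphosphate synthase, whose product feeds squalene as well as protein prenylation, and was the most abundant member in all 3 groups. Its level was 186.7, 201.0 and 208.4 TPM in F/F PBS and 58.5, 61.9 and 69.1 TPM in F/F Tat (lowest, median and highest). In ΔMye Tat it was 73.5, 73.9, 72.5, 73.5 and 76.4 TPM, a narrow range just above F/F Tat. The fall with Tat was -1.67 (SE 0.04, limma adjusted p = 1.70e-18; -1.03 after scaling), a fold of 3.18 that sits just past the threshold of 3. The rise to ΔMye Tat was 0.24 as deposited (limma adjusted p = 7.57e-05) and 0.02 after scaling (limma adjusted p = 0.844). An annotated gene on the same strand, Gm43738, overlaps its exons, and 27.9% of the 31-base sequences of Fdps also occur in other genes, so its level is uncertain where the quantification could split reads.

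Lss encodes lanosterol synthase, which closes the first sterol ring system. It was 9.21, 10.1 and 10.8 TPM in F/F PBS and 2.64, 2.92 and 3.70 TPM in F/F Tat (lowest, median and highest). In ΔMye Tat it was 4.08, 3.96, 3.32, 3.67 and 3.15 TPM, overlapping F/F Tat. The change with Tat was -1.68 (SE 0.10, limma adjusted p = 2.48e-12; -1.06 after scaling), a fold of 3.20, and with a pseudocount of 0.5 or 1 it was under 3-fold (-1.56 and -1.44) and no longer called. ΔMye Tat exceeded F/F Tat by 0.23 (limma adjusted p = 0.0566) and did not pass. An antisense transcript, 4930483K19Rik, overlaps its exons, and whether the quantification used strand is not stated.

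Cyp51, lanosterol demethylase, was 39.4, 40.5 and 43.1 TPM in F/F PBS and 17.03, 18.2 and 20.5 TPM in F/F Tat. Its 5 ΔMye Tat values were 25.2, 22.8, 22.3, 22.2 and 22.3 TPM, all above F/F Tat. It fell by 1.15 with Tat (limma adjusted p = 2.99e-14; by 0.52 after scaling) and rose by 0.32 to ΔMye Tat (limma adjusted p = 3.38e-05), or 0.10 after scaling (limma adjusted p = 0.0911). Fdft1, squalene synthase, the first enzyme committed to sterols, was 33.9, 35.4 and 36.6 TPM in F/F PBS and 18.7, 19.5 and 20.8 TPM in F/F Tat. Its ΔMye Tat values of 20.4, 19.8, 18.7, 19.03 and 19.8 TPM overlapped the F/F Tat range. Fdft1 fell by 0.84 with Tat (limma adjusted p = 1.39e-13; by 0.21 after scaling), and ΔMye Tat differed from F/F Tat by -0.01 as deposited (limma adjusted p = 0.848) and by -0.23 after scaling (limma adjusted p = 3.71e-04). Exons of Cyp51 and Fdft1 overlap Akap9 and Ctsb on the opposite strand, and 14.3% of the 31-base sequences of Fdft1 are shared with other genes.

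Hmgcs1, the cytosolic synthase that makes HMG-CoA, and the regulators changed least. Hmgcs1 was 63.6, 66.2 and 69.7 TPM in F/F PBS, 41.4, 44.3 and 46.7 TPM in F/F Tat and, for ΔMye Tat, 50.4, 48.5, 48.3, 47.5 and 43.3 TPM. Insig1 was 64.0, 67.6 and 70.3 TPM in F/F PBS, 39.5, 41.5 and 45.7 TPM in F/F Tat and, for ΔMye Tat, 51.9, 47.7, 48.7, 48.0 and 46.5 TPM. Srebf2, which encodes SREBP2 itself, was 53.7, 61.8 and 69.9 TPM in F/F PBS, 38.3, 41.7 and 43.9 TPM in F/F Tat and, for ΔMye Tat, 56.9, 48.7, 48.7, 49.4 and 37.2 TPM.
Both Tat groups were below F/F PBS for Hmgcs1 and Insig1, whereas the ΔMye Tat libraries for Srebf2 spread from below F/F Tat to inside the F/F PBS range. With Tat, Hmgcs1 changed by -0.58 (limma adjusted p = 6.14e-11), Insig1 by -0.69 (limma adjusted p = 1.79e-12) and Srebf2 by -0.58 (limma adjusted p = 8.59e-07). These are close to the median of all tested genes, and after scaling they were 0.06, -0.06 and 0.06, none of which passed (adjusted p = 0.0783, 0.164 and 0.386, limma). Of the tested genes, 53.4% had a lower log2 fold change than Hmgcs1 and likewise than Srebf2, and 48.1% than Insig1.

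**Figure D2:**
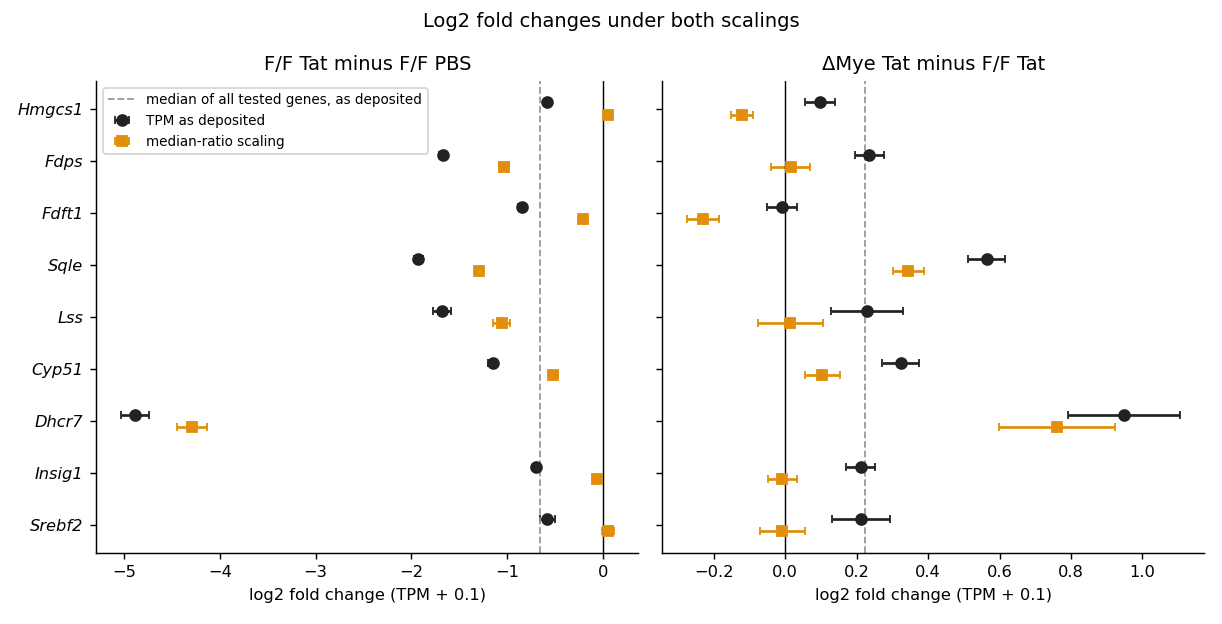
Log2 fold changes (points, bars are the standard error from limma) of the 9 genes for F/F Tat minus F/F PBS and ΔMye Tat minus F/F Tat, for TPM as deposited (black) and after median-ratio scaling (orange), with the median of all tested genes dashed. Dhcr7 stands at -4.89 and -4.29 with Tat, while Hmgcs1, Insig1 and Srebf2 lie between -0.06 and 0.06 after scaling.

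The order of the levels changed with Tat. In F/F PBS it ran Fdps, Insig1, Hmgcs1, Srebf2, Sqle, Cyp51, Fdft1, Dhcr7 and Lss by mean TPM, and neighbouring ranges overlapped only among Insig1, Hmgcs1 and Srebf2. In F/F Tat, Sqle stood below Fdft1 and Cyp51, whose ranges overlapped, and Dhcr7 stood last, below Lss. In ΔMye Tat, Cyp51, Sqle and Fdft1 lay next to each other with overlapping neighbours, and Lss and Dhcr7 were again the lowest.

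A ratio of 2 genes within a library does not depend on the scaling of that library. Relative to Srebf2, 5 members were lower in every F/F Tat library than in every F/F PBS library: Fdps (median ratio 3.27 in F/F PBS and 1.49 in F/F Tat), Sqle (0.843 and 0.330), Lss (0.164 and 0.0728), Cyp51 (0.652 and 0.446) and Dhcr7 (0.338 and 0.0154). The other 3 overlapped, with medians of 1.06 and 1.08 for Hmgcs1, 0.565 and 0.466 for Fdft1 and 1.099 and 1.007 for Insig1. Between F/F Tat and ΔMye Tat, the ratio of Sqle was higher without overlap (median 0.330 and 0.406), and the ratios of the other 7 members overlapped. These ratios show unequal change among the genes, not that Srebf2 itself was steady. The share of all tested genes whose ratio to Srebf2 separates the groups was not computed, so these counts have no background beside them. As deposited, 53.4% of tested genes had a lower log2 fold change with Tat than Srebf2.

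**Figure D3:**
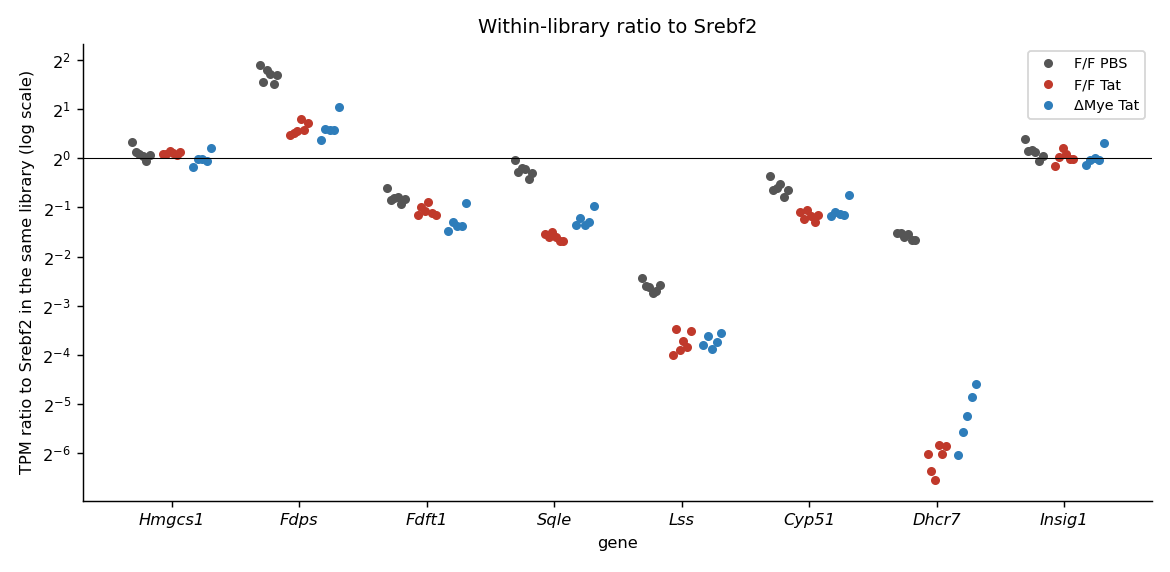
TPM of each member divided by TPM of Srebf2 in the same library (log axis), with 1 point per library and the 3 groups coloured. The ratio of Dhcr7 has a median of 0.338 in F/F PBS and 0.0154 in F/F Tat, and the ratio of Hmgcs1 stays near 1.

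Deletion of IKKβ under Tat was compared in ΔMye Tat and F/F Tat PMs. The summed TPM of the members was 269.2 to 305.4 (median 285.0) in ΔMye Tat, above the F/F Tat range. As deposited, 5 of 9 members passed as higher (Sqle, Dhcr7, Cyp51, Fdps and Insig1, of which Insig1 turned to -0.01 after scaling; 38.8% of tested genes), in each of them without overlap of the groups (28.6% of tested genes), and 0 of 9 were called by the fold rule (0.44% of tested genes higher and 0.316% lower). Hmgcs1 (0.10, adjusted p = 0.0525), Lss (0.23, adjusted p = 0.0566), Fdft1 (-0.01, adjusted p = 0.848) and Srebf2 (0.21, adjusted p = 0.0299) did not pass in limma. The exact two-sided permutation test gave p = 0.00433, the smallest that 6 against 5 libraries allow, for the 5 that passed, and 0.0519, 0.0866, 0.779 and 0.0649 for the other 4 in the same order. The median of the members was 0.23, close to the 0.22 of all tested genes. After median-ratio scaling 2 of 9 passed as higher, Sqle and Dhcr7 (background 15.9%), and 2 of 9 as lower, Hmgcs1 (-0.12, limma adjusted p = 0.00298) and Fdft1 (-0.23, limma adjusted p = 3.71e-04; background 19.4%). Without library 23, the lowest ΔMye Tat library for Hmgcs1, Insig1, Lss and Srebf2, 7 of 9 passed as higher as deposited (38.8% of tested genes with all libraries). These included Hmgcs1 at 0.13 (limma adjusted p = 0.00726) and Srebf2 at 0.30 (limma adjusted p = 4.78e-04). The share of tested genes passing without library 23 is not given here, so 7 of 9 has no like background beside it. The fit without library 23 was not scaled, and the 0.13 of Hmgcs1 was below the 0.22 of all tested genes with all libraries.

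ΔMye Tat PMs were also compared with F/F PBS, a comparison that shares libraries with both of the others, so its values stand beside theirs and are not a further test of them. All 9 members passed as lower as deposited (58.8% of tested genes; Srebf2 was at 0.05 after scaling), 8 without overlap (52.8%), Srebf2 being the exception, and 1 of 9 was called lower, Dhcr7 (11.1%). After scaling, 6 of 9 passed as lower (33.9% of tested genes) and 1 was called, Dhcr7 again (6.3%; -3.53). The log2 fold changes were -3.94 for Dhcr7, -1.45 for Lss, -1.43 for Fdps, -1.36 for Sqle, -0.85 for Fdft1, -0.83 for Cyp51, -0.48 for both Hmgcs1 and Insig1 and -0.36 for Srebf2. As a share of the F/F PBS mean, Sqle was at 26.2% for F/F Tat and 38.9% for ΔMye Tat, Fdps at 31.5% and 37.0%, Cyp51 at 45.0% and 56.3%, and Fdft1 at 55.7% and 55.3%.

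Another 12 enzyme genes of the route were followed as a list. With Tat, 12 of 12 passed as lower (67.6% of tested genes), without overlap of the groups (62.4%), and 6 were called lower (19.4%), against 1 after scaling (9.73%). The 6 were Tm7sf2, a sterol reductase (4.64 to 0.576 TPM, -3.07), Mvd (50.3 to 10.9 TPM, -2.19), Mvk (34.7 to 7.81 TPM, -2.14) and Pmvk (17.7 to 5.52 TPM, -1.65), which carry mevalonate to isopentenyl diphosphate, Ebp, the sterol isomerase (37.5 to 10.9 TPM, -1.77), and Acat2, the thiolase at the start of the route (12.5 to 3.84 TPM, -1.68). The median over the 12 was -1.57 as deposited and -0.94 after scaling. Of the 31-base sequences of Acat2, 43.7% are shared with other genes, mainly Acat3. Tm7sf2 ran from 0.110 to 1.07 TPM in F/F Tat, its lowest value being near the pseudocount of 0.1. Its log2 fold change with Tat spanned -3.28 to -2.78 with libraries left out. Exons of Tm7sf2 overlap Vps51 on the same strand, and 12.9% of its 31-base sequences occur in other genes.

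With the members included, 19 of 19 enzyme genes passed as lower with Tat as deposited (67.6% of tested genes) and 10 of 19 were called (19.4%). After scaling 18 passed as lower (38.0%), Hmgcs1 having changed sign, and 2 were called (9.73%). By stage, as deposited, 5 of 7 genes from acetyl-CoA to farnesyl diphosphate were called, 2 of 3 genes of the squalene and lanosterol steps, and 3 of 9 genes from lanosterol to cholesterol. The median log2 fold changes were -1.67, -1.68 and -1.43 in the same order. After scaling 0 of 7, 0 of 3 and 2 of 9 were called, with medians of -1.03, -1.06 and -0.80, so the order of the stages by calls depended on the scaling. Between ΔMye Tat and F/F Tat, 14 of 19 passed as higher (38.8% of tested genes), 5 of 7, 1 of 3 and 8 of 9 by stage, and 0 were called. After scaling 5 of 19 passed as higher (15.9%), 2 of 7, 1 of 3 and 2 of 9 by stage. As lower 2 passed (19.4%), 1 of 7, 1 of 3 and 0 of 9 by stage. Among the 12 other enzymes the rise was 0.68 for Ebp (limma adjusted p = 2.77e-09), 0.63 for Mvk, 0.61 for Pmvk and 0.59 for Mvd, with a median over the list of 0.46 as deposited and 0.24 after scaling. Against F/F PBS, 19 of 19 passed as lower in ΔMye Tat (58.8%) and 3 were called (11.1%), against 18 (33.9%) and 2 (6.3%) after scaling.

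**Figure D4:**
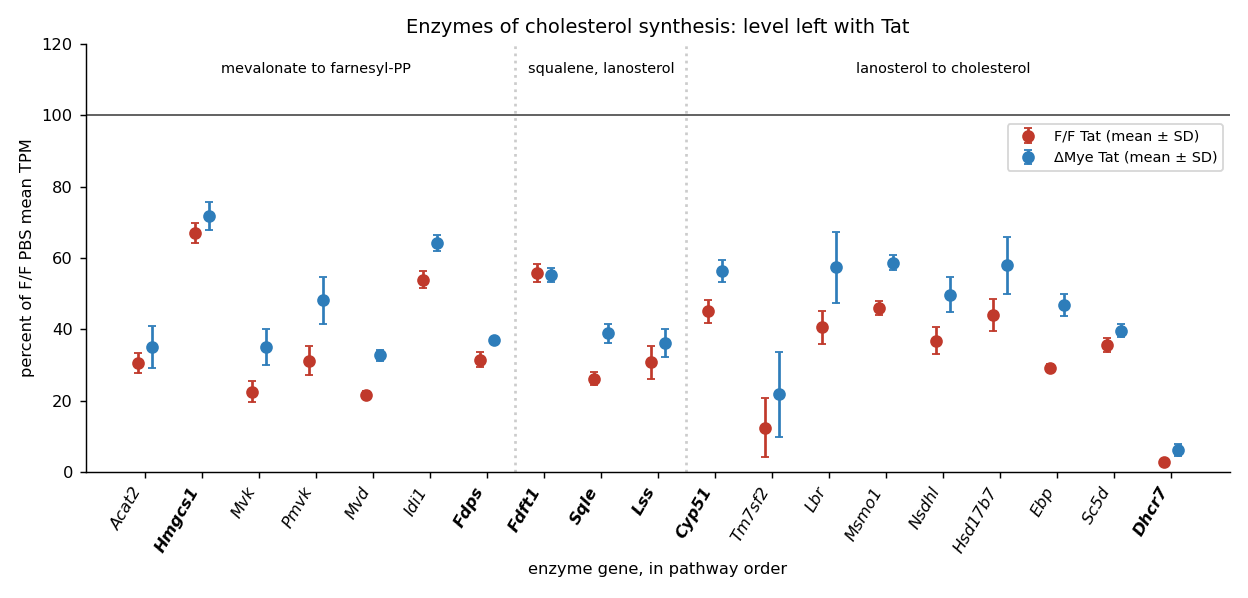
Mean TPM of 19 enzyme genes of cholesterol synthesis, in pathway order (members in bold), as a percentage of the F/F PBS mean (line at 100), in F/F Tat (red, n = 6) and ΔMye Tat (blue, n = 5), with bars of 1 SD. Dhcr7 has the lowest points, at 2.95% and 6.24%, and Hmgcs1 the highest, at 67.0% and 71.8%.

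All of 7 genes of the SREBP machinery and other SREBP2 targets were tested. With Tat, 6 of 7 passed as lower (67.6% of tested genes), against 3 lower (38.0%) and 1 higher, Srebf1 (37.3%), after scaling. As deposited 1 was called (19.4%), Tmem97, a sterol-regulated membrane protein (44.0 to 9.82 TPM, -2.16, and -1.52 after scaling, where it was no longer called). Scap, the escort of SREBP2, fell from 12.7 to 4.68 TPM (-1.43) and was 8.48 TPM in ΔMye Tat, a rise of 0.85 over F/F Tat (limma adjusted p = 4.48e-07; 0.63 after scaling). Srebf1, the gene of the paralog SREBP1, changed by -0.24 as deposited and by 0.40 after scaling. Insig2, the second INSIG gene, averaged 17.4 and 12.4 TPM and did not pass (limma adjusted p = 0.0134). From F/F Tat to ΔMye Tat 3 of the 7 passed as higher (38.8%), against 3 higher (15.9%) and 1 lower (19.4%) after scaling. The median over the list was -0.80 with Tat (-0.17 after scaling).

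Of 8 oxysterol and LXR genes, 7 were tested, Cyp7b1 being below the filter. Ch25h, the hydroxylase that makes 25-hydroxycholesterol, an oxysterol that blocks SREBP2 processing, was 2.57, 3.55 and 5.43 TPM in F/F PBS and 230.7, 241.3 and 250.9 TPM in F/F Tat (lowest, median and highest). It was called higher (log2 fold change 5.98, SE 0.12, limma adjusted p = 8.16e-20; background 5.21%), the opposite direction to all 9 members as deposited. In ΔMye Tat it ranged from 88.3 to 100.3 TPM, lower than F/F Tat by 1.35 on the log2 scale (limma adjusted p = 2.33e-08) and above every F/F PBS library. Cyp27a1, the mitochondrial sterol 27-hydroxylase, was called lower with Tat (7.57 to 2.14 TPM, -1.79; -1.17 after scaling, no longer called) and averaged 1.60 TPM in ΔMye Tat. Nr1h3, the gene of LXRα, averaged 73.2 TPM for F/F PBS, 33.2 for F/F Tat and 71.6 for ΔMye Tat, a fall of 1.14 and a rise of 1.11 (limma adjusted p = 2.77e-14; 0.89 after scaling). Abca1, the cholesterol efflux pump, was 8.29, 7.54 and 10.3 TPM and as deposited passed for the second difference alone (0.43, limma adjusted p = 0.00263). After scaling that difference was 0.21 (limma adjusted p = 0.0618) and did not pass, whereas the first did, as higher. With Tat, as deposited, 4 of the 7 passed as lower (67.6% of tested genes) and Abca1 did not pass (-0.14, and 0.49 after scaling, where it passed). Ch25h and Nr1h2, the gene of LXRβ (0.35, limma adjusted p = 4.89e-08), were higher. After scaling, 3 passed as higher with Tat, Ch25h, Nr1h2 and Abca1 (37.3% of tested genes), and 2 as lower (38.0%). By the adjusted p alone, 2 passed as higher (38.8%) and 1 as lower (8.87%) between the Tat-treated genotypes, and after scaling 1 as higher (15.9%) and 3 as lower (19.4%).

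The genes outside the list whose profile over the 17 libraries was nearest to the median of the members, by root mean square distance on the log2 scale after centring on F/F PBS, were G6pdx (0.072), Gclm (0.075), Ctsa (0.075), Slc11a1 (0.078) and Ncbp1 (0.078), of 6670 candidates that averaged 10 TPM or more in some group. G6pdx, the first enzyme of the pentose phosphate pathway, averaged 183.6 TPM for F/F PBS, 81.4 for F/F Tat and 99.1 for ΔMye Tat. Among the members themselves the distance ran from 0.034 for Cyp51 to 2.79 for Dhcr7.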

How the data were processed

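RNA-Seq libraries were grouped by the sample labels. The authors ran Salmon against Ensembl GRCm38 (mm10 in the submitters' processing notes) and deposited TPM per gene symbol, in which no between-library normalization is stated. TPM hold no read counts, so depth and counting error are unknown, and the listed TPM summed to 889318 to 903576 per library. The labels do not say that cultures came from separate mice, although the paper's heatmap legend describes its columns as biological replicates of mouse. Here p-values measure the spread between libraries. Labels and methods differ on the days between thioglycollate and isolation.

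The 10451 genes that reached 1 TPM in 5 or more libraries entered 1 fit of log2(TPM + 0.1) over all 3 groups (limma 3.58.1, R 4.3.3, trended eBayes, 14 residual degrees of freedom), with Benjamini-Hochberg adjustment over all tested genes, and single members also with exact two-sided permutation tests. The fit was tested on simulated data. The thresholds of the call follow the study's methods. Median-ratio scaling, quantile normalization, array weights with robust eBayes, a fit of the compared groups alone, a filter of 5 TPM or none, other pseudocounts (0.5 and 1) and leaving out each library were the alternatives. The members and gene lists were chosen with earlier results of these data known. The text names all members, list genes past the call rule with Tat, Ikbkb and the 5 nearest genes, and other list genes named were chosen after their values were seen. An allele that all groups share and some genes of the lists are not reported here. Promoters came from RefSeq. Scripts used Python 3.11.15.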

Additional observations from a re-analysis of the deposited data

Results flagged for a closer look

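Of the 27 combinations of a member and a group, 1 had a library that stood apart from the rest: Cyp51 in ΔMye Tat, where library 19 was at 25.2 TPM and the other 4 libraries were at 22.2 to 22.8 TPM. The gap to the nearest library was 0.794 of the whole range. Chance flags about 1 in 20 such groups. Library 19 was the highest ΔMye Tat library for 7 of the 9 members. It also had the most genes at 1 TPM or more in that group (9698, against a median of 9599). The share of all tested genes highest in library 19 was not computed.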

How the results depend on the processing

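No paired analysis was made, because the labels do not say whether libraries of different groups share a mouse. Scaling was the setting that moved most calls. Of the 10451 tested genes, those called lower with Tat numbered 2031 as deposited, 1017 after median-ratio scaling and 826 after quantile normalization. They were 1548 and 1197 with a pseudocount of 0.5 and 1, and 1281 of 8144 with a filter at 5 TPM. With Tat, members called lower were 4 as deposited, 1 after median-ratio scaling and 2 after quantile normalization, other enzymes called lower were 6, 1 and 3 (members 3 with a pseudocount of 0.5 or 1, Lss being lost; other enzymes 4 with a pseudocount of 1 and 5 with a filter at 5 TPM), SREBP machinery and targets called lower were 1 and, after median-ratio scaling, 0 (6 passed the adjusted p as deposited), and oxysterol genes called lower were 1 and 0 after either scaling or with a pseudocount of 1. From F/F Tat to ΔMye Tat, members passing as higher were 5, 2 and 2, and as lower 0, 2 and 1. Over all 10451 tested genes, 4055, 1658 and 1845 passed as higher in the same order, and 927, 2027 and 1599 as lower. Tested genes called lower in ΔMye Tat than in F/F PBS numbered 1165 as deposited, 658 after median-ratio scaling and 544 after quantile normalization. They were 838 and 601 with a pseudocount of 0.5 and 1, and 689 of 8144 with a filter at 5 TPM. Against F/F PBS in ΔMye Tat, other enzymes called lower were 2 as deposited, 1 after median-ratio scaling, with a pseudocount of 0.5 or with a filter at 5 TPM, 0 after quantile normalization or with a pseudocount of 1, and 1 to 2 with each library left out (1 without ΔMye Tat library 23), and oxysterol genes called lower were 1 and 0 after quantile normalization.

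The log2 fold change with Tat changed sign after median-ratio scaling for Hmgcs1 (0.057), Srebf2 (0.057) and Ikbkb (0.43, and 0.24 after quantile normalization), and, among the other listed genes named here, for Srebf1 (0.40 and 0.30), Insig2 (0.15 and 0.12) and Abca1 (0.49 and 0.65). From F/F Tat to ΔMye Tat it changed sign for Hmgcs1 (-0.12 and, after quantile normalization, -0.031), Insig1 (-0.0088), Srebf2 (-0.0077) and Acat2 (-0.035 and -0.088), and for Lss after quantile normalization (-0.062). Against F/F PBS it changed sign for Srebf2 (0.049). Fdft1 spanned -0.026 to 0.0061 with libraries left out. The cause was not tested. Leaving out a library kept 4 members called with Tat in every case, and gave 5 to 7 passing as higher in ΔMye Tat than in F/F Tat. With all libraries 5 of 9 members passed as higher, and 38.8% of tested genes. The shares of tested genes with libraries left out are not given here.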
